A study of Homo sapiens with 12 samples.

Results

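Interferon-stimulated genes were followed across 4 genotypes of the leukaemia line OCI-AML3. The set was a list of 50 gene symbols, each matched exactly to the gene identifiers of the deposited count table. All 50 were among the 26259 genes of that table, and 43 had enough reads to be tested. Of those 43, 12 changed in at least 1 knockout clone, with OAS1 lower and GBP5 and PARP12 higher in all 3 clones, and 31 passed the thresholds in none. Over all tested genes 12.9% were called in at least 1 clone.

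OCI-AML3 is an established human acute myeloid leukaemia line carrying mutated NPM1. Its unedited parental cells (wt) and 3 knockout clones, named CD33 KO, CD123 KO and CD33/CD123 KO after the genes edited, gave 3 libraries each, 12 in all. CD33 is a myeloid surface receptor that recognises sialic acids, and CD123, the product of IL3RA, is the interleukin-3 receptor alpha chain. The clones were made by electroporating Cas9 protein bound to guide RNA, enriched by magnetic and flow sorting, and grown from single cells. The labels name no interferon treatment for any group. Each genotype was a single clone and no unedited clone was among the groups, so the effect of editing and the character of a clone cannot be told apart. The libraries are called triplicates with no word on separate cultures, so the p-values reflect how far these libraries vary, and that variation may be purely technical.

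Type I interferons bind a receptor of IFNAR1 and IFNAR2, and the kinases JAK1 and TYK2 then phosphorylate STAT proteins, among them STAT2. A STAT complex with IRF9 binds the interferon-stimulated response element (ISRE), and the gamma-activated site (GAS) is the element known for its response to interferon gamma. The genes switched on encode sensors of viral RNA, enzymes that destroy or modify RNA and nucleotides, membrane and nuclear restriction factors, and regulators of the response itself. Many of them are also transcribed at a low level in unstimulated cells.

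The promoters of these genes are shown first because the list is defined by an inducing signal, which these sequence elements receive. RefSeq promoter windows of 300 bases (250 before and 50 after the start site, build GRCh38.p14) were found for 40 members, 1 of them through a synonym (DDX58). An ISRE-type motif (GAAA, any 2 bases, GAAA, on either strand) was in 28 of the 40 windows (70%), against 3.574% of 35116 RefSeq promoters of the same length. A GAS-type motif (TTC, any 3 bases, GAA, which reads the same on both strands) was in 11 of the 40 (27.5%), against 7.657%. The ISRE-type motif was in 2 of 2 members that were higher in a clone, 3 of 5 that were lower, 16 of 26 that passed in no clone, and 7 of 7 that were not tested. Thus members with the motif were found among the genes that rose, those that fell and those that did neither. In the windows below, written 5′ to 3′ in the direction of the gene, capitals mark the motif, and a motif on the opposite strand appears as TTTC repeats. HERC5 and PARP12 rose, OAS3, IFIT5 and ISG20 fell, and ISG15 and BST2 passed in no clone.
HERC5 (chr4:88457035-88457064, + strand): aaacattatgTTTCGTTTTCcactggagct
PARP12 (chr7:140062942-140062971, - strand): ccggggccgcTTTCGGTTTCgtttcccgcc
OAS3 (chr12:112938452-112938481, + strand): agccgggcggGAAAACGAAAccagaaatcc
IFIT5 (chr10:89414513-89414542, + strand): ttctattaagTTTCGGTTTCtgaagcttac
ISG20 (chr15:88638937-88638966, + strand): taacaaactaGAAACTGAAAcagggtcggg
ISG15 (chr1:1013380-1013409, + strand): tcgggaaaggGAAACCGAAActgaagccaa
BST2 (chr19:17405735-17405764, - strand): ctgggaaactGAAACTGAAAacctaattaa

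The 28 windows held 46 ISRE-type motifs, and 44 of them began within 200 bases before the start site. HERC5 and IFIT5 held 3 each, OAS3 held 2, and PARP12 and ISG20 held 1. Motifs of this type that share letters were each counted, as at -125 and -119 bases in HERC5 and in ISG15, IFIH1 and BST2. The windows reached only 250 bases before the start site, so motifs further upstream were not seen. In 4 members (BST2, IFI27, IFITM1 and EPSTI1) an ISRE-type and a GAS-type motif overlapped in part of their letters. The windows of RSAD2 and CMPK2 held neither. No promoter window was matched for OAS2, OASL, MX2, GBP2, GBP5, USP18, IFIT2, IRF7, TRIM22 and IFITM2. A match is a description of letters in a window and not a site shown to be bound.

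**Figure D1:**
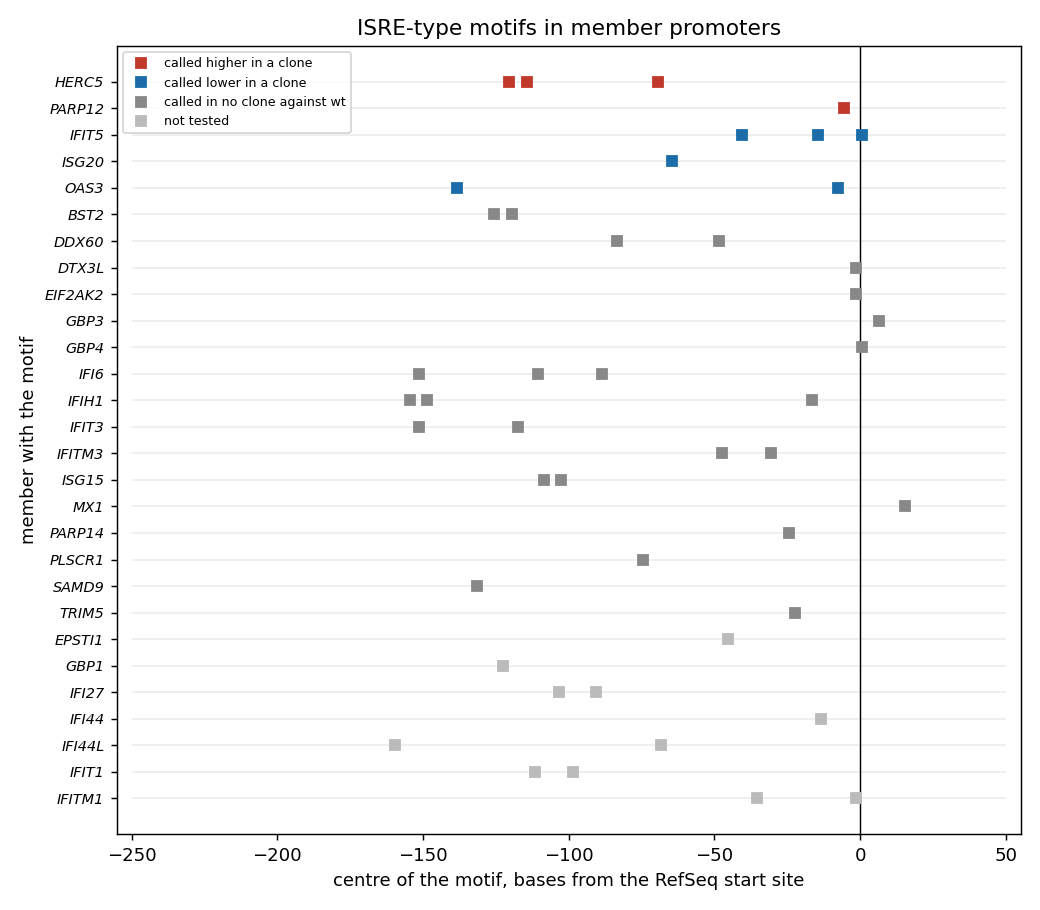
Position of each ISRE-type motif (square, at the centre of its letters) in bases from the RefSeq start site (x axis, vertical line at 0) for the 28 members that hold one (y axis), coloured by whether the member was higher, lower, in no call or not tested. Of the 46 motifs, 44 began within 200 bases before the start, in genes of every class.

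Total counts were 15583315 to 51494440 in wt, 34525802 to 61827969 in CD33 KO, 28750520 to 40618480 in CD123 KO and 17216402 to 23665315 in CD33/CD123 KO. Levels are CPM, counts scaled to a common library size, on TMM-scaled library sizes, and 3 counts were worth 0.0504 to 0.187 CPM. Wt library 1, the shallowest, stood apart in 2 abundant non-coding RNAs, RPPH1 at 168 CPM and RNA45S5 at 160 CPM, against at most 3.35 and 4.97 CPM in the others. The edited genes were still transcribed: CD33 averaged 50.4 CPM in wt and 39.9, 54.5 and 45.7 CPM in the CD33 KO, CD123 KO and CD33/CD123 KO clones, and IL3RA 7.54, 4.80, 3.52 and 7.64 CPM. A frameshift can leave transcript levels as they were, so this checks the labels only weakly. The myeloid markers SPI1 (241 to 273 CPM as group means) and CEBPA (587 to 768 CPM) were abundant, MPO was low (1.37 to 2.10 CPM), and the T cell genes CD3D and CD3E and the erythroid gene HBB had no count. The 4 B cell markers summed to 1.13 to 1.70 CPM in wt, 0.0300 to 0.199 in CD33 KO, 0.834 to 1.33 in CD123 KO and 0.0866 to 0.120 in CD33/CD123 KO. The 4 NK cell markers summed to 1.58 to 2.37, 1.01 to 1.08, 1.74 to 2.10 and 0.303 to 0.694 CPM in that order, with NCR1 and KLRD1 at 0. Both sums were lower in the 2 clones edited at CD33 than in wt, as were OAS3, RSAD2 and ISG20 among the members, and their part in those results was not tested. Within the NK list NKG7 was called lower there (-1.57 and -3.32), while KLRF1 was at 1.53, called higher, in CD33 KO and at 1.12 in CD33/CD123 KO. The 4 markers of plasmacytoid dendritic cells, the main interferon producers of blood, did not go one way. In the same order CLEC4C averaged 0.238, 0.0228, 0.233 and 0.0144 CPM and LILRA4 0.0272, 0.0212, 0.0272 and 0.0337, both too low to test, while TCF4 had log2 fold changes of -0.25, -0.48 and -0.30 and GZMB of 1.96 (called), 1.59 (called) and 1.37. The 8 myeloid markers summed to 1394 to 1437 CPM in wt, 1998 to 2059 in CD33 KO, 2906 to 3148 in CD123 KO and 2393 to 2411 in CD33/CD123 KO. That sum was higher in every clone, as were PARP12 and GBP5, and its part was not tested. The list did not move as one. LYZ had log2 fold changes of 0.85, 3.26 (called) and 1.84 (called), and averaged 170 CPM in wt and 1624 CPM in CD123 KO. Also above wt in every clone were CD68 at 1.17, 0.67 and 1.33, ITGAM at 0.73, 0.99 and 1.45, and CSF3R at 0.36, 0.28 and 0.65. CEBPA was at 0.35, -0.03 and 0.30, and CSF1R went the other way at -2.09 (called), -0.84 and -2.29 (called). MPO was at -0.63, -0.38 and -0.01, and SPI1 at -0.01, 0.12 and -0.06.

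The members spanned a wide range of levels in wt cells. On a per-length scale (TPM, computed from the counts and exon lengths), BST2 stood at 593 TPM, IFITM2 at 284, TRIM22 at 98.8 and MX2 at 79.6, and these 4 made up 76.2% of all member TPM. BST2, the tetherin that holds budding virus particles at the cell surface, alone made up 42.8%. The OAS genes lay between 0.432 TPM (OASL) and 1.26 TPM (OAS1), and GBP5 at 0.0124 TPM. The mean of log2(CPM + 1) was taken over all 50 members, the 7 not tested included. It was 2.79 to 2.83 in wt and 2.84 to 2.86 in CD33 KO. In CD123 KO it was 2.81 to 2.86, and in CD33/CD123 KO 2.68 to 2.75. The double-edited clone thus lay lowest and CD33 KO above wt, with all group means within 0.2 of each other on this log2 scale. Over all tested genes the mean was 4.35 in each wt library and 4.30 to 4.31 in CD33 KO. It was 4.35 to 4.36 in CD123 KO and 4.28 to 4.29 in CD33/CD123 KO. The double-edited clone was lowest there too, and CD33 KO lay below wt.

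A gene was called where edgeR's quasi-likelihood test, Benjamini-Hochberg adjusted over all 14010 tested genes, gave an adjusted p under 0.05 and the log2 fold change was beyond 1.5 in size, the thresholds named in the series design. "Rose" and "fell" are used of called genes. In CD33 KO 4 members rose (GBP2, GBP5, HERC5, PARP12) and 4 fell (OAS1, OAS3, OASL, RSAD2), against 8.45% of all tested genes called, 1.96% higher and 6.50% lower. In CD123 KO 3 rose (GBP2, GBP5, PARP12) and 3 fell (OAS1, OAS2, USP18), against 5.35% of all genes, 2.62% higher and 2.73% lower. In CD33/CD123 KO 2 rose (GBP5, PARP12) and 6 fell (OAS1, OAS2, OAS3, IFIT5, RSAD2, ISG20), against 9.21% of all genes, 1.86% higher and 7.36% lower. The members called were 18.6%, 14.0% and 18.6% of the 43, in each comparison more than the share over all genes. This excess lay mostly with members of low level. Of the 21 members with a mean of at least 10 CPM, 1, 0 and 0 were called, beside 2.04%, 1.17% and 2.21% of all genes at that level. Of the 22 under 10 CPM, 31.8%, 27.3% and 36.4% were called, beside 20.5%, 13.2% and 22.4%. Since all 3 comparisons share the wt libraries, the overlap between their calls is given as a count only.

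The set did not move as a block in any clone. The median log2 fold change over the 43 members was 0.00, 0.05 and -0.02 in the CD33 KO, CD123 KO and CD33/CD123 KO clones, beside -0.02, 0.01 and -0.01 over all tested genes. Signs were split, with 22, 23 and 20 positive. At adjusted p alone, 16 members were higher and 17 lower in CD33 KO, 16 and 16 in CD123 KO, and 15 and 18 in CD33/CD123 KO. Over all genes 63.1% passed that threshold in CD33 KO (30.6% higher, 32.5% lower), 59.5% in CD123 KO (29.6% and 29.9%) and 58.6% in CD33/CD123 KO (28.8% and 29.8%). Libraries of clone and wt did not overlap for 34, 33 and 32 members, where 69.9%, 64.3% and 61.8% of all tested genes did not overlap. As measured in bulk RNA, fewer cells expressing a gene and less RNA per cell cannot be told apart. With glmTreat, which tests against the fold threshold itself, 1, 3 and 5 members were called in place of 8, 6 and 8. Without wt library 2, CD33 KO had 5 called members, since OAS3 (-1.47), OASL (-1.37) and GBP2 (1.48) no longer passed.

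**Figure D2:**
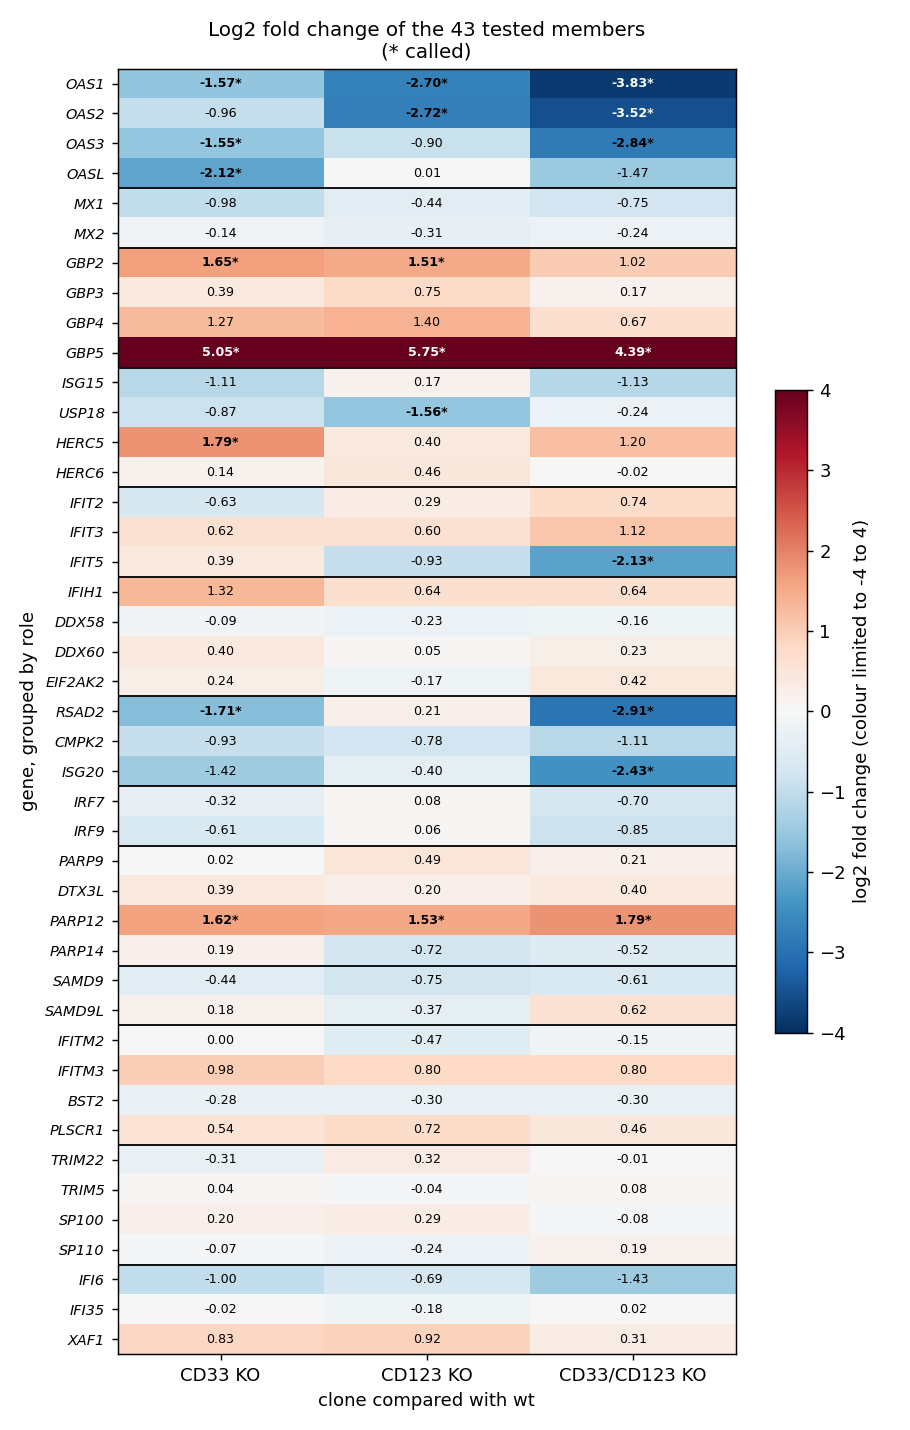
Log2 fold change against wt (colour, limited to -4 to 4, with the value written in each cell) of the 43 tested members (rows, grouped by role between the black lines) in the 3 clones (columns). Asterisks mark called changes. The OAS genes are mostly negative, the guanylate-binding protein genes are all positive, and most other cells lie near 0.

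Most of the OAS family fell. OAS1, OAS2 and OAS3 encode 2′-5′-oligoadenylate synthetases, which sense double-stranded RNA and activate RNase L, and OASL encodes a related protein without that enzyme activity. All 4 were tested, and 3, 2 and 3 fell in the CD33 KO, CD123 KO and CD33/CD123 KO clones, with none higher. The family's median log2 fold changes were -1.56, -1.80 and -3.18. OAS1, OAS3 and OAS2 lie in that order within 105 kb on hg19 chromosome 12 (113344739 to 113449528).

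OAS1 stood at 0.872, 1.09 and 1.10 CPM in the wt libraries, 0.269, 0.480 and 0.344 in CD33 KO, 0.102, 0.196 and 0.167 in CD123 KO, and 0.0433, 0.0599 and 0.116 in CD33/CD123 KO. The wt libraries were highest, no clone overlapped them, and the libraries of the 2 clones edited at CD123 overlapped each other. Its log2 fold changes were -1.57 (SE 0.31), -2.70 (SE 0.37) and -3.83 (SE 0.53), with edgeR quasi-likelihood adjusted p = 7.96e-05, 8.77e-07 and 6.86e-07. The double-edited clone had 4 counts of OAS1 in all, against 108 in wt. Without CD33 KO library 1 the change in that clone was -1.37 and no longer passed.

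OAS2 stood at 2.93, 2.16 and 2.49 CPM in wt, 1.13, 1.50 and 1.23 in CD33 KO, 0.238, 0.364 and 0.477 in CD123 KO, and 0.0433, 0.360 and 0.289 in CD33/CD123 KO. Again wt was highest and CD33 KO came between wt and the other clones, with no overlap on either side. The log2 fold changes were -0.96 (SE 0.23, not called), -2.72 (SE 0.29) and -3.52 (SE 0.38), with edgeR quasi-likelihood adjusted p = 0.000916, 1.32e-08 and 1.21e-08. The 2 calls held in every alternative fit that tested the gene.

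OAS3 followed another order of clones. It stood at 1.12, 1.50 and 1.45 CPM in wt, 0.487, 0.510 and 0.434 in CD33 KO, 0.817, 0.476 and 0.929 in CD123 KO, and 0.346, 0.120 and 0.0578 in CD33/CD123 KO. All clones lay below wt, and the 2 single-edited clones overlapped. Log2 fold changes came to -1.55 (SE 0.29), -0.90 (SE 0.29, not called) and -2.84 (SE 0.43), with edgeR quasi-likelihood adjusted p = 5.48e-05, 0.00902 and 2.81e-06. In CD33 KO OAS3 no longer passed without wt library 2 (-1.47) or CD33 KO library 3 (-1.48).

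OASL, elsewhere on chromosome 12 (121458095 to 121477045), had the lowest CPM of the family in wt. It stood at 0.374, 0.572 and 0.158 CPM in wt, 0.0336, 0.150 and 0.109 in CD33 KO, 0.374, 0.364 and 0.453 in CD123 KO, and 0.0866, 0.120 and 0.231 in CD33/CD123 KO. Wt libraries spread widely and overlapped the CD123 KO and the CD33/CD123 KO clones. On the log2 scale these differences were -2.12 (SE 0.54), 0.01 (SE 0.45) and -1.47 (SE 0.63), with edgeR quasi-likelihood adjusted p = 0.00143, 0.982 and 0.0494. OASL in CD33 KO lost its call without wt library 2 (-1.37, edgeR adjusted p = 0.107), and in CD33/CD123 KO it gained one without wt library 3 (-1.83) or CD33/CD123 KO library 3 (-1.94).

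**Figure D3:**
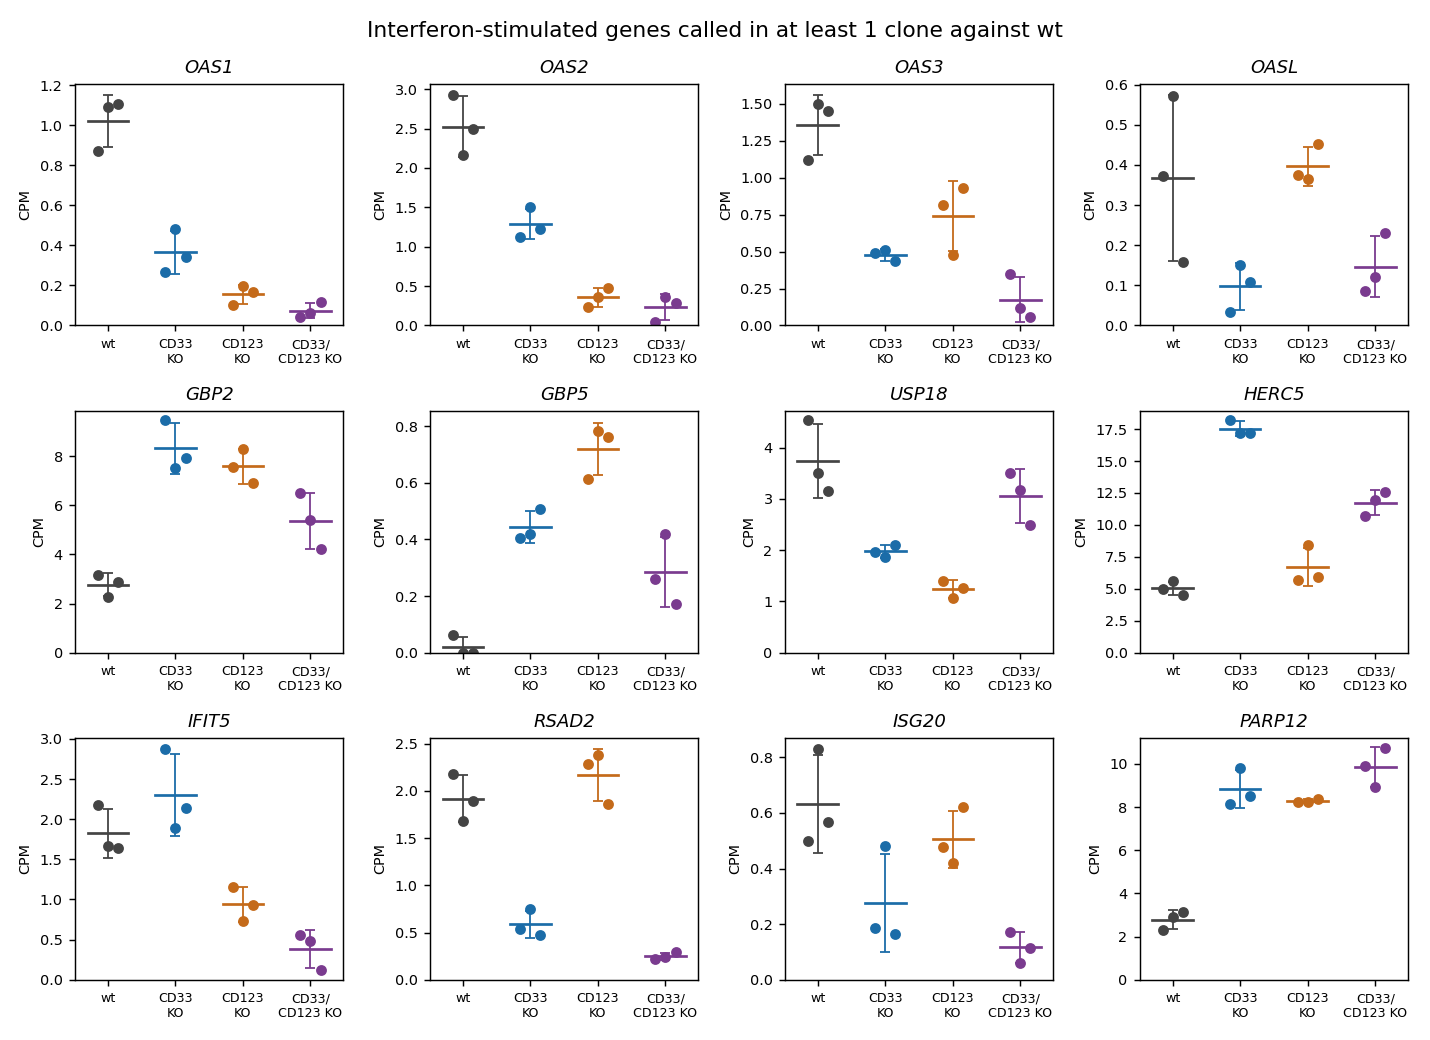
CPM (y axis, linear from 0, with its own scale in each panel) of the 12 called members in wt, CD33 KO, CD123 KO and CD33/CD123 KO (x axis). Points are libraries, horizontal lines are means and bars are 1 SD with n = 3, cut off at 0 for GBP5 in wt. OAS1 is highest in wt and PARP12 lowest in wt, with no overlap with any clone.

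Among enzymes acting on nucleotides and RNA, RSAD2 and ISG20 fell and CMPK2 passed the thresholds in no clone. RSAD2 encodes viperin, which makes a chain-terminating nucleotide. It stood at 2.18, 1.68 and 1.89 CPM in wt, 0.538, 0.750 and 0.471 in CD33 KO, 2.28, 2.38 and 1.86 in CD123 KO, and 0.217, 0.240 and 0.289 in CD33/CD123 KO. Both clones edited at CD33 lay below wt without overlap, while CD123 KO overlapped wt. Against wt this gave log2 fold changes of -1.71 (SE 0.23), 0.21 (SE 0.20, not called) and -2.91 (SE 0.33), with edgeR quasi-likelihood adjusted p = 4.06e-07, 0.384 and 2.86e-08.

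CMPK2, a mitochondrial nucleotide kinase gene, lies 11.0 kb from RSAD2 on the opposite strand (hg19 chromosome 2). It averaged 13.4 ± 0.828 CPM in wt, 7.00 ± 0.581 in CD33 KO, 7.79 ± 0.329 in CD123 KO and 6.16 ± 0.450 in CD33/CD123 KO (mean ± SD, n = 3). Its log2 fold changes of -0.93, -0.78 and -1.11 were past the adjusted p (3.49e-09, 1.36e-07 and 9.22e-10 by edgeR's quasi-likelihood test) and not past the fold threshold. The neighbours differed in CD123 KO, where CMPK2 was below wt in every library and RSAD2 overlapped wt.

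ISG20 encodes a 3′-to-5′ exonuclease of single-stranded RNA. It stood at 0.498, 0.831 and 0.567 CPM in wt, 0.185, 0.480 and 0.163 in CD33 KO, 0.476, 0.420 and 0.620 in CD123 KO, and 0.173, 0.0599 and 0.116 in CD33/CD123 KO. The double-edited clone lay below wt and CD123 KO without overlap. In log2 terms the clones differed from wt by -1.42 (SE 0.39, not called), -0.40 (SE 0.36, not called) and -2.43 (SE 0.57), with edgeR quasi-likelihood adjusted p = 0.00271, 0.362 and 0.000658. The change of ISG20 in CD33 KO passed the fold threshold without wt library 1 (-1.51), wt library 3 (-1.51) or CD33 KO library 2 (-1.92).

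The guanylate-binding proteins went the other way. These are large GTPases that gather on pathogen-containing vacuoles and bacteria, and interferon gamma is a strong inducer of them. All 5 lie in a cluster on hg19 chromosome 1 (89472360 to 89738544), on the same strand. Of the 4 tested genes, 2 rose in CD33 KO, 2 in CD123 KO and 1 in CD33/CD123 KO, with none lower, and their median log2 fold changes were 1.46, 1.45 and 0.85. The family members are similar in sequence and how reads mapping to more than 1 place were handled is not stated, so the split of reads between them is uncertain.

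GBP2 stood at 3.18, 2.25 and 2.87 CPM in wt, 9.49, 7.53 and 7.95 in CD33 KO, 7.55, 8.31 and 6.91 in CD123 KO, and 6.50, 5.39 and 4.22 in CD33/CD123 KO. Every clone library exceeded every wt library, and the double-edited clone lay below both single-edited ones. The log2 fold changes were 1.65 (SE 0.15), 1.51 (SE 0.15) and 1.02 (SE 0.17, not called), with edgeR quasi-likelihood adjusted p = 4.31e-10, 5.01e-09 and 8.26e-06. The calls lie close to the fold threshold: without wt library 2 GBP2 was at 1.48 and 1.34 in the single-edited clones, and without CD123 KO library 2 it was at 1.44 in CD123 KO, none called.

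GBP5, which promotes inflammasome assembly, went from almost no reads to a low level. It had 1 count in wt library 1 (0.0623 CPM) and none in wt libraries 2 and 3, against 0.403, 0.420 and 0.507 CPM in CD33 KO, 0.612, 0.784 and 0.763 in CD123 KO, and 0.260, 0.419 and 0.173 in CD33/CD123 KO. All clone libraries lay above all wt libraries. Over summed counts, 66, 78 and 16 in the clones against 1 in wt, the ratios scaled to depth were 45.4 (95% exact counting interval 7.88 to 1822), 74.3 (12.9 to 2970) and 28.6 (4.44 to 1198), which cover counting error only. The edgeR quasi-likelihood test gave adjusted p = 1.89e-06, 1.08e-07 and 0.000239, and fitted log2 fold changes of 5.05, 5.75 and 4.39, which depend on the prior count.

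GBP4 stood at 3.67, 3.14 and 3.18 CPM in wt, 8.67, 7.38 and 7.53 in CD33 KO, 8.64, 9.77 and 7.58 in CD123 KO, and 6.45, 4.61 and 4.39 in CD33/CD123 KO. It had the same order of group means as GBP2 and GBP5 in that the double-edited clone lay between wt and the single-edited clones. For GBP5 the double-edited clone overlapped CD33 KO. The log2 fold changes of 1.27, 1.40 and 0.67 were under the fold threshold, with edgeR quasi-likelihood adjusted p = 1.12e-08, 3.46e-09 and 0.000539. GBP3 ranged from 5.25 ± 0.633 CPM in wt to 8.87 ± 0.636 in CD123 KO, with log2 fold changes of 0.39, 0.75 and 0.17. GBP1 had 8 counts in all 12 libraries and was not tested.

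ISG15 and its conjugation system split between directions. ISG15 is a ubiquitin-like modifier, HERC5 the ligase that attaches it, HERC6 a relative of HERC5, and USP18 the protease that removes it and also restrains the type I interferon receptor. One of the 4 rose in CD33 KO, 1 fell in CD123 KO, and in CD33/CD123 KO HERC5 and ISG15 were past the adjusted p but not the fold threshold.

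HERC5 stood at 4.98, 5.58 and 4.54 CPM in wt, 18.2, 17.2 and 17.2 in CD33 KO, 5.72, 8.40 and 5.96 in CD123 KO, and 10.7, 11.9 and 12.6 in CD33/CD123 KO. Each clone lay above wt, CD33 KO furthest, and the 4 groups did not overlap. Log2 fold changes came to 1.79 (SE 0.12), 0.40 (SE 0.13) and 1.20 (SE 0.13), with edgeR quasi-likelihood adjusted p = 1.99e-12, 0.00904 and 1.32e-08, of which the first was called.

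USP18 stood at 4.54, 3.51 and 3.15 CPM in wt, 1.97, 1.86 and 2.10 in CD33 KO, 1.40, 1.06 and 1.26 in CD123 KO, and 3.51, 3.18 and 2.49 in CD33/CD123 KO. The single-edited clones lay below wt without overlap, and the double-edited clone overlapped it. On the log2 scale these differences were -0.87 (SE 0.16, not called), -1.56 (SE 0.18) and -0.24 (SE 0.18, not called), with edgeR quasi-likelihood adjusted p = 4.79e-05, 5.48e-08 and 0.248. USP18 in CD123 KO no longer passed without wt library 1 (-1.44) or CD123 KO library 2 (-1.46). The gene has near-identical copies in the genome, so its count is uncertain.

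ISG15 itself stood at 6.60, 5.28 and 4.76 CPM in wt, 3.01, 2.16 and 2.32 in CD33 KO, 6.40, 6.16 and 5.81 in CD123 KO, and 2.73, 2.58 and 2.08 in CD33/CD123 KO. Both clones edited at CD33 lay below wt and CD123 KO overlapped wt, the arrangement seen for RSAD2. Against wt this gave log2 fold changes of -1.11, 0.17 and -1.13, with edgeR quasi-likelihood adjusted p = 2.86e-07, 0.301 and 1.95e-06, none past the fold threshold. HERC6 was at 0.14, 0.46 and -0.02 on the same scale.

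The IFIT genes encode proteins that bind viral RNA lacking host cap modifications, and they lie together on hg19 chromosome 10 (91061706 to 91180759). IFIT5 was the only one called in a comparison with wt. It stood at 2.18, 1.66 and 1.64 CPM in wt, 2.87, 1.89 and 2.14 in CD33 KO, 1.16, 0.728 and 0.929 in CD123 KO, and 0.563, 0.479 and 0.116 in CD33/CD123 KO. CD33 KO overlapped wt, and the 2 clones edited at CD123 lay below it. In log2 terms the clones differed from wt by 0.39 (SE 0.22), -0.93 (SE 0.26) and -2.13 (SE 0.35), with edgeR quasi-likelihood adjusted p = 0.127, 0.00314 and 7.90e-06, and only the last was called.

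IFIT3, a neighbour of IFIT5, was higher in CPM where IFIT5 was lowest. It stood at 1.87, 1.85 and 1.54 CPM in wt, 2.89, 2.76 and 2.44 in CD33 KO, 3.27, 2.97 and 1.86 in CD123 KO, and 4.29, 3.72 and 3.30 in CD33/CD123 KO, with log2 fold changes of 0.62, 0.60 and 1.12 that were not called. IFIT2 was on that scale at -0.63, 0.29 and 0.74, overlapping wt in each clone. IFIT1 had 60 counts over the 12 libraries and was not tested.

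PARP12 rose by similar amounts in all 3 clones. It encodes a mono-ADP-ribosyltransferase that restricts RNA viruses. It stood at 2.30, 2.92 and 3.15 CPM in wt, 8.17, 9.81 and 8.51 in CD33 KO, 8.23, 8.26 and 8.39 in CD123 KO, and 9.92, 8.93 and 10.8 in CD33/CD123 KO. The clones lay about 3-fold above wt with no overlap, and CD33 KO overlapped both other clones. The log2 fold changes were 1.62 (SE 0.12), 1.53 (SE 0.12) and 1.79 (SE 0.13), with edgeR quasi-likelihood adjusted p = 7.21e-12, 5.11e-11 and 3.16e-12. In CD123 KO PARP12 was at 1.46 and not called without wt library 1.

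The relatives of PARP12 were not called. PARP9 and its partner DTX3L, an E3 ubiquitin ligase, had log2 fold changes of 0.02 to 0.49 and 0.20 to 0.40 over the 3 clones. Their annotated ends overlap by 339 bases on opposite strands. The kit was directional, but whether strand was used in counting is not stated, so reads from that stretch cannot be told apart. PARP14, a macrodomain protein of the same locus, averaged 34.7 ± 2.34 CPM in wt, 39.3 ± 2.23 in CD33 KO, 20.8 ± 0.155 in CD123 KO and 24.0 ± 3.23 in CD33/CD123 KO, with log2 fold changes of 0.19, -0.72 and -0.52 that were not called.

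No member of the remaining role groups was called against wt. The sensors of viral RNA are IFIH1 (MDA5), DDX58 (RIG-I) and DDX60, and EIF2AK2 encodes the kinase PKR, which halts translation. IFIH1 had the largest fold change of the 4. It stood at 18.2, 15.7 and 16.2 CPM in wt, 41.3, 40.9 and 41.3 in CD33 KO, 26.6, 26.6 and 24.2 in CD123 KO, and 24.9, 26.7 and 25.8 in CD33/CD123 KO. Every clone library exceeded wt, and log2 fold changes were 1.32, 0.64 and 0.64 (edgeR quasi-likelihood adjusted p = 5.86e-16, 2.74e-09 and 5.21e-09), under the fold threshold. On that scale EIF2AK2 was at 0.24, -0.17 and 0.42, and DDX58 at -0.09, -0.23 and -0.16.

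Of the transcription factors, IRF9, the DNA-binding partner of STAT proteins, averaged 17.4 ± 0.0291 CPM in wt, 11.4 ± 0.466 in CD33 KO, 18.1 ± 0.503 in CD123 KO and 9.64 ± 1.26 in CD33/CD123 KO. Log2 fold changes came to -0.61, 0.06 and -0.85 (edgeR quasi-likelihood adjusted p = 2.95e-07, 0.563 and 6.37e-09). IRF7, which drives interferon alpha genes, had log2 fold changes of -0.32, 0.08 and -0.70. Both factors were lower in the 2 clones edited at CD33, by less than the fold threshold.

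The membrane-associated members, some of them very abundant, were not called. BST2 stood at 251, 247 and 242 CPM in wt, 209, 203 and 200 in CD33 KO, 209, 196 and 194 in CD123 KO, and 198, 207 and 197 in CD33/CD123 KO. It lay below wt in each clone by a similar step, with log2 fold changes of -0.28, -0.30 and -0.30. On the log2 fold scale IFITM2, a membrane protein that blocks virus entry, was at 0.00, -0.47 and -0.15, and IFITM3 at 0.98, 0.80 and 0.80. The IFITM genes are near-identical in parts, and the split of reads between them is uncertain. PLSCR1, a phospholipid scramblase, was at 0.54, 0.72 and 0.46.

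MX2, which blocks entry of viral cores into the nucleus, averaged 96.2 ± 3.80 CPM in wt and 77.2 to 87.2 CPM in the clones, with log2 fold changes of -0.14, -0.31 and -0.24. MX1, its relative, averaged 1.24 CPM in wt, and on the log2 fold scale was at -0.98, -0.44 and -0.75. Of the SAMD9 pair, adjacent genes whose products arrest translation, SAMD9 was at -0.44, -0.75 and -0.61 and SAMD9L at 0.18, -0.37 and 0.62. TRIM22, a nuclear and cytoplasmic restriction factor, averaged 125 ± 3.87 CPM in wt, 101 ± 1.82 in CD33 KO, 155 ± 1.34 in CD123 KO and 124 ± 3.53 in CD33/CD123 KO. SP100, a component of nuclear bodies, was at 0.20, 0.29 and -0.08, while TRIM5 was at 0.04, -0.04 and 0.08 and SP110 at -0.07, -0.24 and 0.19.

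The other members included XAF1, a pro-apoptotic protein, at 34.4 ± 1.99 CPM in wt, 60.8 ± 2.50 in CD33 KO, 64.4 ± 2.56 in CD123 KO and 42.4 ± 2.09 in CD33/CD123 KO. Its log2 fold changes of 0.83, 0.92 and 0.31 were under the fold threshold, with the double-edited clone between wt and the single-edited clones. On the same scale IFI35 was at -0.02, -0.18 and 0.02. IFI6, an antiviral protein of the endoplasmic reticulum, averaged 5.62 ± 0.559 CPM in wt and 2.81 ± 0.422, 3.50 ± 0.323 and 2.09 ± 0.348 in the clones. It was not called, and in CD33/CD123 KO IFI6 passed the fold threshold without wt library 3 (-1.52) or CD33/CD123 KO library 3 (-1.57).

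The 7 members that were not tested, GBP1, IFIT1, IFITM1, IFI27, IFI44, IFI44L and EPSTI1, had 6 to 60 counts each over the 12 libraries and at most 0.300 CPM in any of them. IFI27, IFI44L and IFIT1 are strongly induced by type I interferon in many cells. IFI44L had 3 counts in wt, 1 in CD33 KO, 2 in CD123 KO and none in CD33/CD123 KO. IFIT1 stood at 0.249, 0.203 and 0.221 CPM in wt and at 0.101, 0.0600 and 0.109 in CD33 KO without overlap. With no low-count filter none of the 7 was called against wt by edgeR's quasi-likelihood test, IFIT1 in CD33 KO being at -1.18 with an adjusted p of 0.141. In the same fit EPSTI1 was called lower in CD33 KO, with 0 counts, than in CD123 KO, with 8 counts (edgeR quasi-likelihood adjusted p = 0.0136).

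The clones were next set against each other, which tests whether they differ and does not involve the wt libraries in the contrast. Between CD33 KO and CD123 KO, OAS2 was higher in CD33 KO by 1.76 (SE 0.30) and OASL and RSAD2 were lower, with log2 differences of -2.13 (SE 0.54) and -1.92 (SE 0.22), where 7.45% of all genes were called (1.31% higher, 6.14% lower). The 3 called were 6.98% of the 43 members, close to the share over all genes. The edgeR quasi-likelihood adjusted p were 1.62e-05, 0.00125 and 4.11e-08. The OAS genes thus did not share an order between these clones. HERC5 was above in CD33 KO by 1.39, which was 1.59 and called without CD123 KO library 2, and ISG20 at -1.02 was -1.53 and called without CD33 KO library 2.

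Against CD33 KO, OAS1, OAS2 and IFIT5 were lower in CD33/CD123 KO, with log2 differences of -2.26 (SE 0.62), -2.56 (SE 0.41) and -2.53 (SE 0.32), where 3.18% of all genes were called (1.35% higher, 1.83% lower). These were 6.98% of the 43 members, more than the share over all genes. The edgeR quasi-likelihood adjusted p were 0.00676, 1.96e-05 and 8.13e-07. The same 3 genes had lower levels in CD123 KO than in CD33 KO as well. No member was higher by edgeR, by DESeq2 or by limma-voom, and 7 were higher at an unadjusted p under 0.05. Without CD33/CD123 KO library 1, OAS1 lost its call (-1.96, edgeR adjusted p = 0.0557) and OAS3 gained one (-2.39), and IFIT2 was called higher, at 1.57, without CD33 KO library 2 or CD33/CD123 KO library 3.

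Against CD123 KO, OAS3, RSAD2 and ISG20 were lower in CD33/CD123 KO, with log2 differences of -1.94 (SE 0.47), -3.12 (SE 0.32) and -2.03 (SE 0.59), where 7.64% of all genes were called (0.942% higher, 6.70% lower). They made up 6.98% of the 43 members, close to the share over all genes. The edgeR quasi-likelihood adjusted p were 0.000907, 6.67e-09 and 0.00455. By mean level these 3 genes were lower in CD33 KO than in CD123 KO as well. There only RSAD2 was called, and the libraries of OAS3 (-0.65) and ISG20 (-1.02) overlapped. No member was higher by edgeR, DESeq2 or limma-voom, and 11 were higher at an unadjusted p under 0.05. Leaving out 1 CD33/CD123 KO library added a call for OASL (without library 3, -1.96), GBP5 (without library 2, -1.69) or IFIT5 (without library 1, -1.64).

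The change between the CD33/CD123 KO and CD33 KO clones was then set against that between CD123 KO and wt. This tests whether the differences of the single-edited clones from wt add up, on the log2 scale, to that of the double-edited clone. Each genotype is a single clone, so the effect of the edits and the character of the clones cannot be told apart here. Of the members, 5 departed from additivity, 1 upward and 4 downward, against 6.10% of all genes, 2.42% upward and 3.68% downward. At adjusted p alone the members numbered 27 between the single-edited clones, 22 and 28 for the double-edited clone against CD33 KO and CD123 KO, and 26 for additivity, beside 64.9%, 28.0%, 59.6% and 49.3% of all genes. GBP2 (-2.13, SE 0.21), GBP4 (-1.99, SE 0.20) and GBP5 (-6.41, SE 0.88, resting on the 1 wt count) were lower in the double-edited clone than the sum of the single changes, with edgeR quasi-likelihood adjusted p = 5.47e-09, 4.80e-09 and 1.20e-06. Each was above wt in both single-edited clones and, by mean level, less so in the double-edited one. For GBP5 the double-edited clone overlapped CD33 KO (log2 difference -0.66, not called). USP18 departed in the other direction (2.19, SE 0.26, edgeR adjusted p = 9.29e-08), being below wt in the single-edited clones and overlapping wt in the double-edited clone. IFIT5 (-1.60, SE 0.44, edgeR adjusted p = 0.00361) lost its call without CD33 KO library 1 (-1.41), CD33/CD123 KO library 3 (-1.22) or CD123 KO library 1 (-1.45). RSAD2 (-1.41) gained one without CD33 KO library 3 (-1.55), CD33/CD123 KO library 3 (-1.54) or CD123 KO library 3 (-1.51). OAS1 and OAS2, at 0.44 and 0.16, were not called, and their standard errors of 0.96 and 0.62 leave room for a departure in either direction.

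The called members were mostly genes with few reads. Of the 21 members with a mean of at least 10 CPM, 1 (HERC5) was called in any of the 3 comparisons with wt, beside 3.27% of all 9155 genes at that level. Of the 22 under 10 CPM, 11 (50%) were called, beside 31.1% of 4855 genes. Calls were thus more common among low genes in the list and in the table alike, and the folds of the lowest members rest on few counts.

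**Figure D4:**
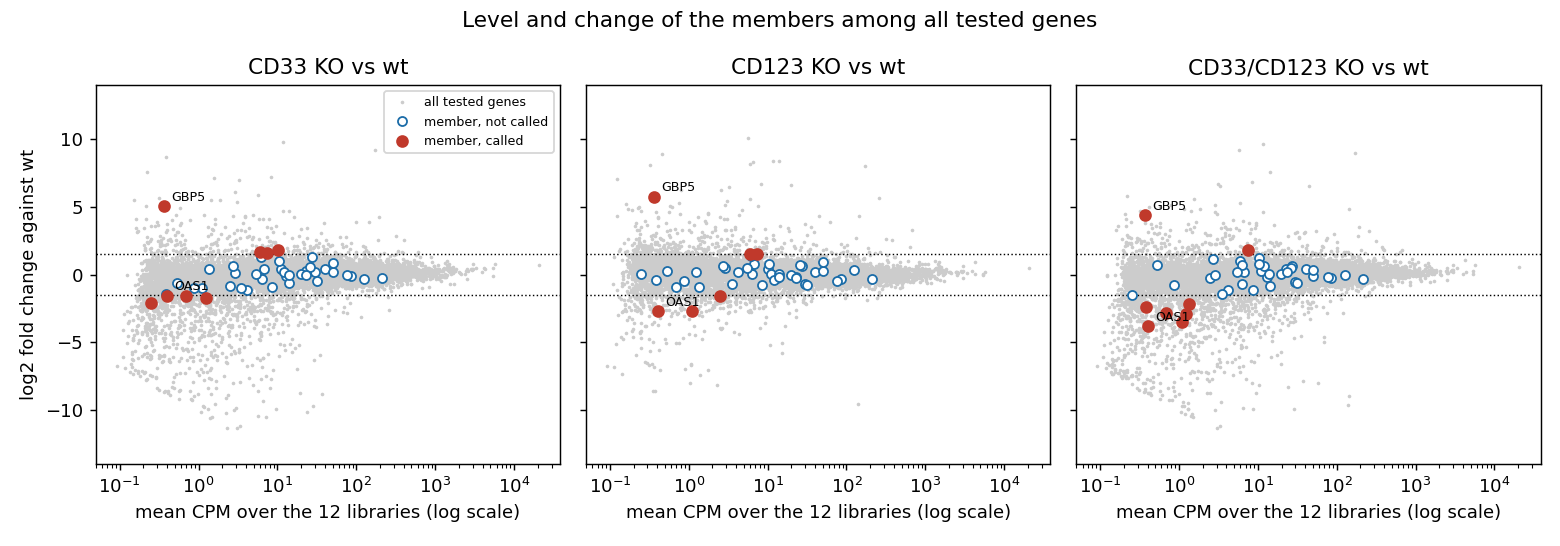
Log2 fold change against wt (y axis) by mean CPM over the 12 libraries (x axis, log scale) for all 14010 tested genes (grey), the members not called (open) and the members called (red), with a panel for each clone. Dotted lines mark 1.5 and -1.5. All called members but HERC5, at 10.3 CPM, have a mean under 10 CPM.

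Genes beside the called members on the chromosome were examined to see whether whole stretches had moved. For the OAS1 to OAS2 stretch, the 5 tested genes on either side had median log2 fold changes of 0.09, 0.15 and 0.13 in the CD33 KO, CD123 KO and CD33/CD123 KO clones and none was called. For the guanylate-binding protein cluster the medians were 0.13, 0.20 and 0.06, and none was called. Around PARP12 they were -0.23, 0.04 and -0.03, and around ISG20 -0.37, -0.08 and -0.29, again with none called. Around RSAD2 and HERC5, 1 neighbour was lower in each of the 2 clones edited at CD33, and the medians lay within 0.16 of 0. The lowest neighbour of RSAD2 was at -2.58 in CD33 KO and -4.09 in CD33/CD123 KO, and that of HERC5 at -2.10 and -2.14. In those clones RSAD2 itself was lower than in wt and HERC5 higher. The other loci held called neighbours too. Around IFIT5 the medians were -0.35, 0.14 and -0.13, with 2 neighbours lower in CD33 KO (the lowest at -5.31), 1 higher in CD123 KO (1.91) and 1 lower in CD33/CD123 KO (-5.26). Around USP18 they were -0.25, -0.14 and -0.21, with 1 neighbour lower in CD33 KO (-1.97) and 1 in CD123 KO (-1.79). Around OASL they were 0.00, -0.03 and 0.00, with 1 neighbour higher in CD33 KO (2.58).

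The rest of the interferon pathway was read from 80 further genes, 56 of them tested. In CD33 KO 1 was higher and 3 lower, in CD123 KO 3 higher and none lower, and in CD33/CD123 KO 2 higher and 3 lower. These were 7.14%, 5.36% and 8.93% of the 56, close to the 8.45%, 5.35% and 9.21% called over all genes. The count of 0 lower in CD123 KO, by edgeR's quasi-likelihood test, stood beside 22 lower at an unadjusted p under 0.05. The ligands came first: of 14 interferon genes none was tested, and IFNB1 had 1 count, in CD123 KO. Next, the receptor chains IFNAR1 (log2 fold changes -0.04, 0.06 and -0.08) and IFNAR2 (-0.25, 0.17 and 0.23) had mean wt levels of 67.1 and 60.2 CPM and were not called.

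The kinases and STAT proteins were abundant and none was called. As log2 fold changes, JAK1 was at 0.18, -0.09 and 0.20 and TYK2 at 0.25, 0.42 and 0.13. STAT2 was at 0.14, 0.28 and 0.20. IRF1, which acts downstream of interferon gamma, was at 0.19, 0.07 and 0.20, and IRF3, which is activated by RNA and DNA sensors, at -0.27, -0.13 and -0.29. IRF5, a factor acting downstream of Toll-like receptors, was called lower in CD33/CD123 KO than in CD123 KO (-1.52), at the edge of the threshold, and was -1.49 without CD123 KO library 2.

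Among the other effectors, LGALS3BP, a secreted galectin-binding glycoprotein, rose in all 3 clones. It stood at 0.685, 0.646 and 0.977 CPM in wt, 4.50, 3.57 and 3.67 in CD33 KO, 2.59, 3.39 and 3.46 in CD123 KO, and 3.98, 2.94 and 3.70 in CD33/CD123 KO, with log2 fold changes of 2.36, 2.05 and 2.22. CXCL10, a chemokine that attracts T cells, took opposite directions in the single-edited clones. It stood at 0.685, 0.739 and 1.07 CPM in wt, 0.202, 0.180 and 0.380 in CD33 KO, 2.89, 2.80 and 2.60 in CD123 KO, and 0.0433, 0.120 and 0.0578 in CD33/CD123 KO. On the log2 scale these differences were -1.67 (SE 0.31), 1.71 (SE 0.24) and -3.51 (SE 0.53), with edgeR quasi-likelihood adjusted p = 4.89e-05, 9.94e-07 and 2.77e-06. In CD33 KO CXCL10 no longer passed without wt library 3 (-1.45) or CD33 KO library 1 (-1.47). CXCL10 was also called lower in CD33/CD123 KO than in CD33 KO (-1.85), but not by DESeq2 or limma-voom. That call was lost as well without CD33 KO library 3 (-1.42), CD33/CD123 KO library 1 (-1.54) or CD33/CD123 KO library 3 (-1.76). CXCL11, a relative of CXCL10, rose in CD123 KO (2.11, SE 0.53) and was called lower in CD33/CD123 KO than in CD123 KO (-2.53).

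Of the inhibitors, SOCS3, which blocks cytokine receptor signalling, fell by 1.89 and 2.24 on the log2 scale in CD33 KO and CD33/CD123 KO and was at 1.33 in CD123 KO, not called. CISH, a SOCS family gene induced through STAT5, rose in CD33/CD123 KO (1.52), and was just under the threshold without wt library 3 or CD33/CD123 KO library 2. TLR8, an endosomal sensor of single-stranded RNA, had 69 counts in wt, 3 in CD33 KO, 122 in CD123 KO and 1 in CD33/CD123 KO. Scaled to depth, wt exceeded the clones edited at CD33 by a ratio of 33.4 (95% exact counting interval 11.0 to 166) and 38.6 (6.71 to 1548). CXCL10, SOCS3, TLR8 and the member RSAD2 were all lower in CD33 KO than in CD123 KO. Their log2 differences were -3.38, -3.22, -5.58 and -1.92, where TLR8's rests on 3 counts in CD33 KO. In that comparison 4 of the 56 pathway genes were called lower, 2 of them other effectors with CXCL10 included, and 0 higher. That was 7.14%, close to the 7.45% of all genes (1.31% higher, 6.14% lower). Of the members, 2 were called lower and 1, OAS2 at 1.76, higher.

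**Figure D5:**
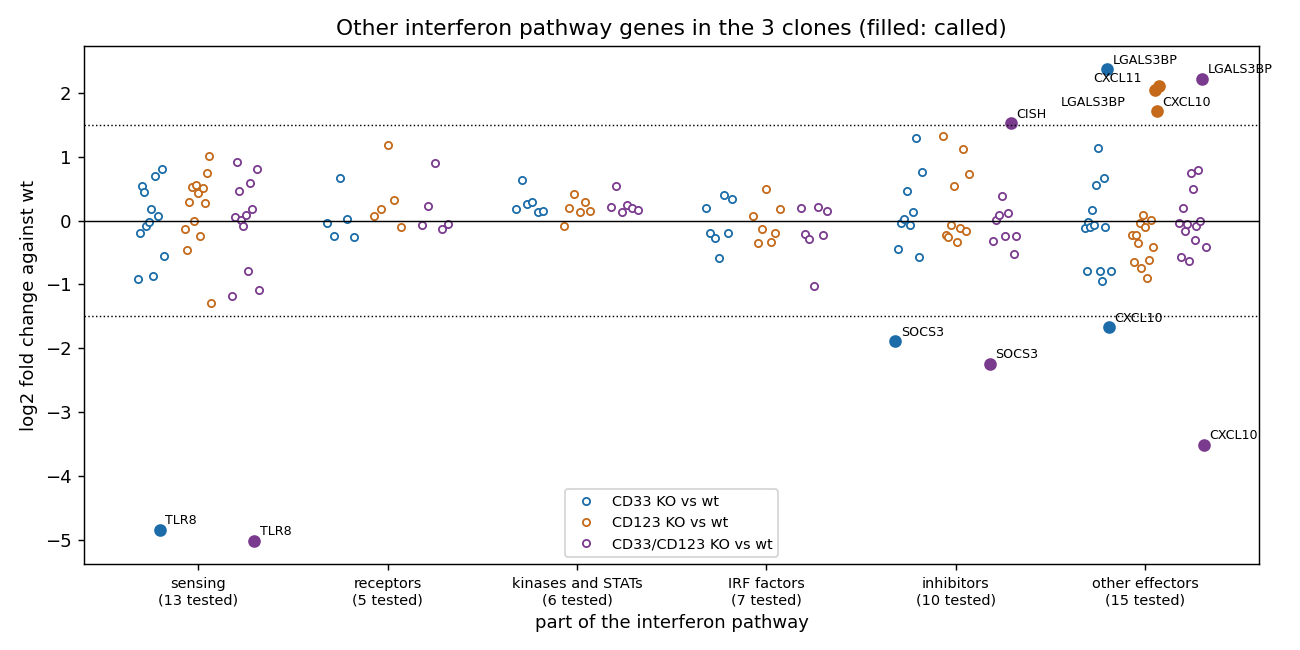
Log2 fold change against wt (y axis) of the 56 tested interferon pathway genes outside the member list, by their place in the pathway (x axis), with a column of points for each clone. Filled points are called and labelled, and dotted lines mark 1.5 and -1.5. Receptors, kinases and STATs and IRF factors have no filled point, while TLR8, SOCS3, CXCL10, CXCL11, CISH and LGALS3BP have.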

How the data were processed

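Poly(A)-selected RNA of 12 libraries was measured in 4 groups of 3, taken from the labels. The authors deposited 1 table of read counts per gene, not normalized. Per the submitters' processing notes, HISAT2, featureCounts, edgeR and hg19 were used. No version, strand or multimapping setting is given in the sources used here.

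Genes were filtered with filterByExpr (14010 of 26259 kept), normalized by TMM, and edgeR 4.0.16 was applied (R 4.3.3, robust quasi-likelihood F-test, Benjamini-Hochberg adjustment per contrast, no covariates). All groups shared a fit with 8 residual degrees of freedom and a common biological coefficient of variation of 5.41%. A call needed an adjusted p under 0.05 and an absolute log2 fold change over 1.5. Standard errors come from the F statistic.

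Members, lists, tests and the rule for named genes were chosen with earlier results of these data known. That rule gives library values for each called member, up to 2 abundant genes of role groups without one, called pathway genes, and CD33, IL3RA, IFNAR1, IFNAR2, JAK1, TYK2, STAT2, IRF1, IRF3 and IFNB1, with 1 further gene not reported here. CMPK2, GBP3, GBP4, ISG15, HERC6, IFIT2, IFIT3 and other members outside it were named after their values were seen. Alternatives were RLE and library-size scaling, other filters, DESeq2 1.42.0, limma-voom 3.58.1, compared groups only, other call rules including glmTreat, and each library left out.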

Additional observations from a re-analysis of the deposited data

Results flagged for a closer look

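For 9 genes the change between clones with and without CD123 editing differed with CD33 editing, by the test of that difference in edgeR's quasi-likelihood fit. The log2 differences of the members were -2.13 for GBP2, -1.99 for GBP4, -6.41 for GBP5, 2.19 for USP18 and -1.60 for IFIT5. GBP5 rests on 1 wt count, and its fitted difference depends on the prior count. Of the pathway genes, SOCS3 differed by -1.68, NLRC5 by -1.74, LGALS3BP by -2.19 and CXCL10 by -3.56. NLRC5, a regulator of HLA class I genes, averaged 46.4 ± 2.12 CPM in wt, 79.0 ± 1.16 in CD33 KO, 77.5 ± 3.63 in CD123 KO and 39.5 ± 1.95 in CD33/CD123 KO (mean ± SD, n = 3). Over all tested genes 6.10% were called for this difference, and each genotype is a single clone.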

How the results depend on the processing

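Of 36 called pairs of a member and a comparison, 24 were lost in at least 1 fit and none reversed. The other 12 stayed called wherever they were tested, 6 of them in every fit, while 6 (of GBP5 and OAS1) were not tested in at least 1. Among the 24, some were lost only with glmTreat, which tests against the fold threshold itself and is stricter. Examples are HERC5 in CD33 KO and PARP12 in CD33/CD123 KO, both against wt. In the order CD33 KO, CD123 KO and CD33/CD123 KO against wt, CD33 KO against CD123 KO, CD33/CD123 KO against CD33 KO and against CD123 KO, and non-additivity, members called were 8, 6, 8, 3, 3, 3 and 5. With glmTreat they were 1, 3, 5, 0, 0, 1 and 2, and with adjusted p alone 33, 32, 33, 27, 22, 28 and 26. With a log2 fold change over 1, CD33/CD123 KO against wt had 15 and the last 4 comparisons 8, 6, 8 and 9. Requiring 1 CPM in 3 libraries left 5 in CD33 KO and 5 in CD33/CD123 KO against wt, since fewer members were tested. Leaving out 1 library gave 5 to 9, 4 to 6, 8 to 10, 3 to 4, 3 to 4, 3 to 4 and 4 to 6. Over all genes, calls of 1184, 750, 1291, 1044, 446, 1071 and 855 became 744, 314, 776, 630, 173, 511 and 342 with glmTreat. At a log2 fold change over 1, CD33 KO and CD123 KO against wt had 1862 and 1468 and the last 4 comparisons 1793, 736, 1715 and 1499. At adjusted p alone they were 8838, 8339, 8207, 9086, 3928, 8350 and 6901. Library-size scaling shifted the median over all genes by -0.12 in CD33 KO and -0.11 in CD33/CD123 KO. No paired analysis was possible because the groups share no replicate numbers in the labels. Depth limits the lowest genes, such as OAS1 with 4 counts in CD33/CD123 KO.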
